A study of Mus musculus with 37 samples.

Results

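The genes described here are the chemokines and the chemokine receptors of mouse macrophages that were cultured toward osteoclasts, the bone-resorbing cells that macrophages form by fusion. Members were taken by gene symbol: every row named Ccl, Cxcl, Xcl, Ccr, Cxcr, Xcr or Ackr followed by a digit, and in addition Cx3cl1, Cx3cr1 and Ccrl2. The rule found 59 of the 23170 genes in the tables, 35 ligands and 24 receptors. Of these, 37 had enough counts to be tested, among 12774 genes tested in all. Pf4 and Ppbp, chemokines of platelets with symbols of another form, are outside the rule. The measured cells were bone-marrow-derived macrophages that were knocked out for Arid1a (KO) or wild type (WT), sampled at days 0, 2 and 4 of osteoclastic differentiation. Each of the 6 groups had 2 RNA-seq libraries, so n = 2 in every group below. The protein of Arid1a belongs to BAF, a complex that moves nucleosomes and opens chromatin. The allele, the Cre driver if one was used, the mouse strain and age, and whether replicates were separate animals or cultures are not given in the sources used here, so p-values may measure technical spread alone.

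Chemokines are small secreted proteins that attract leukocytes along a gradient. They bind receptors of the G protein-coupled family, which signal through Gi proteins, phosphoinositide 3-kinase and Rac toward the actin cytoskeleton, while atypical receptors bind chemokines without this signal. In the bone marrow, CXCL12 and its receptor CXCR4 hold precursor cells in place, and CCL2, CCL9 and the receptors CCR1, CCR2 and CX3CR1 are known for the recruitment and fusion of osteoclast precursors.

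Libraries held 16282164 to 18608353 counts, of which the members took 0.173% to 0.451%. Levels are given as CPM, counts relative to the library's total after TMM scaling, and differences as log2 fold changes ± SE with a Benjamini-Hochberg adjusted p from edgeR's quasi-likelihood test over the 12774 genes, called under 0.05. Arid1a ranged from 84.7 to 118 CPM in KO libraries, against 135 to 242 CPM in WT libraries. At every day its KO libraries lay below its WT libraries, though reads of the gene remained. The difference passed the test at day 0 (adjusted p = 0.0141) and day 4 (0.00793) and not at day 2 (0.0613). Macrophage markers were present in every library: 9 of them summed to 3813 and 5953 CPM in KO libraries at day 4, against 2073 and 2267 CPM in WT libraries. Cx3cr1, itself a member, is among these 9. The 9 osteoclast markers summed to 4563 and 1669 CPM in KO libraries at day 4, against 15530 and 20139 CPM in WT libraries. The 2 KO libraries of day 4 stood apart from each other: 13 of the 37 tested members differed by over 2-fold between them (CPM + 1), and 3 between the WT libraries of that day. In such bulk RNA, fewer cells of a type and less RNA per cell cannot be told apart.

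On the length-corrected TPM scale of the authors, the ligand repertoire differed most at day 4. In KO libraries of day 4, Ccl9 held 46.2% and 29.3% of the summed ligand TPM and Cxcl10 15.8% and 35.4%. In WT libraries of day 4, Ccl9, a CCR1 ligand that macrophages and osteoclasts make in quantity, held 93.8% and 94.3%, and Cxcl10 1.19% and 1.64%. All ligands together summed to 3061 and 4560 TPM in KO libraries at day 4, against 3158 and 3527 TPM in WT libraries. The genotypes thus overlapped in the full sum. Without Ccl9, the ligands summed to 1648 and 3224 TPM in KO libraries at day 4, against 195 and 201 TPM in WT libraries. At day 0, by contrast, the same 3 ligands led in both genotypes: Ccl9 averaged 686 ± 15.7 TPM in KO and 774 ± 218 TPM in WT libraries (SD, n = 2 each), followed by Ccl6 and Cxcl16. By group mean, the leading receptor at day 4 was Cxcr4 in KO, at 203 TPM, and Ccr1 in WT, at 226 ± 35.6 TPM. Cxcr4 did not lead in each KO library. Summed over all 24 receptors, KO libraries held 658 and 456 TPM at day 4, against 310 and 313 TPM in WT libraries. The receptor sums did not differ most at that day. At day 2 they were 1238 and 1519 TPM in KO libraries, against 719 and 578 TPM in WT libraries. The day 0 sums were 948 and 1098 TPM in KO libraries, against 658 and 534 TPM in WT libraries. A few receptors held most of each sum, so the sums do not describe the receptors as a group. Cxcr4 took 25.57% and 22.45% of the sum in KO libraries at day 0, against 72.16% and 52.99% in WT libraries.

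**Figure D1:**
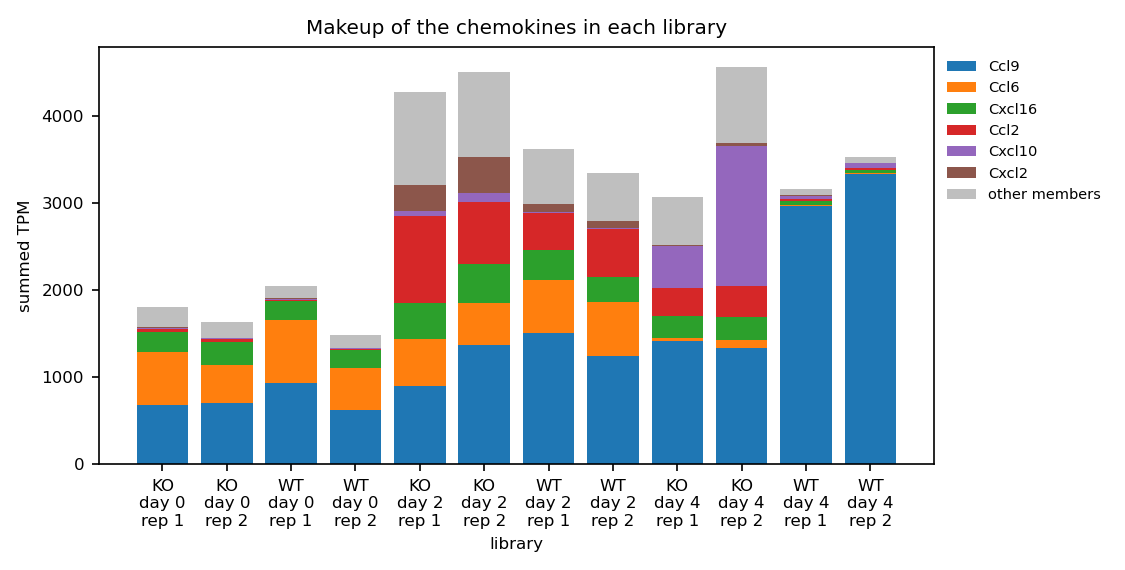
Stacked bars of the summed TPM of the ligands in each library, with the leading genes in colour and the other members in grey. Ccl9 fills almost the whole bar of the WT libraries of day 4 (93.8% and 94.3%), and Cxcl10 takes 15.8% and 35.4% of the KO libraries of that day.

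The 22 members below the count filter held at most 61 counts each over the 12 libraries. Cxcl15, Ccr6, Cxcr1, Cxcl17, Ccl26 and Ccl19 had 0 counts in all 12 libraries. The others (Ccr10, Cxcl13, Ccr1l1, Ccl20, Ackr4, Xcl1, Ccr9, Cxcr2, Cxcr5, Ccr4, Ccl1, Ackr2, Ccl17, Ccl11, Ackr1 and Ccr8) reached between 1 and 44 counts in their highest library. The 44 were of Cxcl13, which had 45 counts over the KO libraries of day 4 and 1 over those of day 2. Cxcr1 and Cxcr2, the receptors through which neutrophils read the CXCR2 ligands described below, are in this group. Ccl27a and Ccl27b hold identical counts in every library, so the reads of these near-identical genes cannot be separated.

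Few tested members differed between the genotypes at days 0 and 2 and most at day 4. At day 0, 4 of the 37 tested members were higher in KO libraries and 0 lower, where 1.58% of all tested genes were called (0.767% higher and 0.814% lower). Among them were the receptor Cxcr3 and the ligands Ccl2 and Ccl7. At day 2, again 4 were higher and 0 lower, against 4.52% of all genes called (3.09% higher and 1.42% lower), with Cxcr3, Ccl2 and Ccl5 among them. At day 4, 21 were higher and 1, Ccl9, was lower, against 25.6% of all genes called (14.5% higher and 11.1% lower). The members' median log2 fold change was 0.26 at day 0, 1.3 at day 2 and 2.72 at day 4 (2.50 with Ccl24, at 0 counts in WT, set at its bound), beside 0.03, -0.00 and -0.03 over all tested genes. As log2(TPM + 1) the members' medians were smaller, at 0.19, 0.447 and 1.83, beside 0.0373, -0.117 and -0.0419 over all tested genes. The KO and WT libraries of day 4 did not overlap for 29 of the 37 members, which holds for 66.5% of all tested genes. Fitted on the 4 libraries of the comparison alone, an alternative chosen after seeing the data, 0 members were called at day 0, 9 at day 2 and 0 at day 4, where 7, 1005 and 2 genes of all were called. The 21 members of the 22 that could be refitted at day 4 kept their sign there, with adjusted p from 0.0595 to 0.118. The macrophage and osteoclast marker sums given above also differed between the genotypes at day 4, and their part in these results was not tested. The marker sums of neutrophils, B cells, and T and NK cells were low, but also higher in KO libraries at day 4. They were 4.40 and 6.44 CPM, 0.358 and 1.78 CPM, and 0.614 and 0.222 CPM in KO libraries. WT libraries held 1.85 and 1.59 CPM, 0 and 0.103 CPM, and 0.0515 and 0 CPM. The sums of dendritic cells, and of mast cells and basophils, stood lower, and the erythroid and stromal sums overlapped. Those of endothelial cells and megakaryocytes stood higher in KO libraries at day 4, each through 1 gene. Kdr, a growth factor receptor of endothelial cells, had 104 and 723 CPM in KO libraries, against 6.07 and 9.13 CPM in WT libraries, while Pecam1, Cdh5, Tek and Emcn held at most 24 counts in each of these libraries. Pf4 had 87.3 and 85.4 CPM in KO libraries, against 14.5 and 10.05 CPM in WT libraries, while the other 4 megakaryocyte markers held at most 6 counts.

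**Figure D2:**
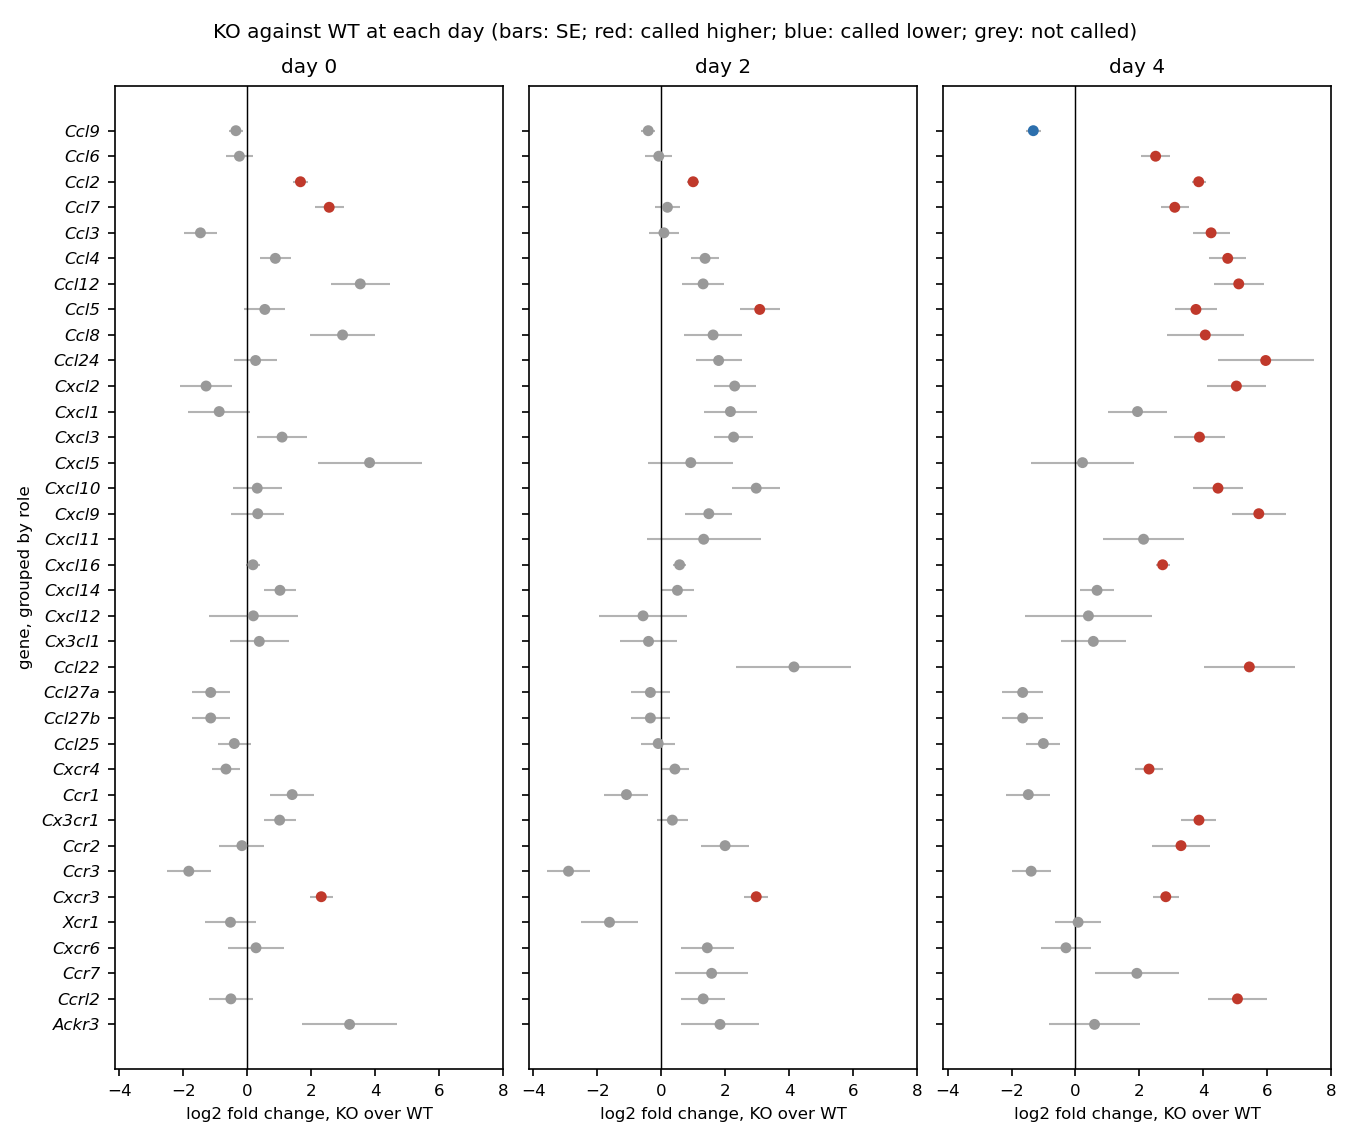
Log2 fold change of KO over WT for 36 tested members at days 0, 2 and 4, with bars for the SE and genes grouped by role; red points passed the test upward, blue downward, and grey points did not pass. A member with 0 counts in both genotypes at a day has no point. At day 4 the points of 20 members are red, from 2.30 (Cxcr4) upward, with Ccl24, at 0 counts in WT, drawn at its fitted value, and only Ccl9 is blue.

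Of the signalling receptors, Cxcr3 was higher in KO libraries at all 3 days. Cxcr3, the receptor of Cxcl9, Cxcl10 and Cxcl11, had 34.4 and 36.5 CPM in KO libraries at day 0, against 5.12 and 9.11 CPM in WT libraries. Its day 2 values were 26.9 and 21.4 CPM in KO libraries, against 2.33 and 3.85 CPM in WT libraries. Its day 4 values were 3.64 and 5.55 CPM in KO libraries, against 0.515 and 0.769 CPM in WT libraries. In both genotypes its level at day 4 was lower than at days 0 and 2, and the log2 differences were 2.31 ± 0.36, 2.97 ± 0.37 and 2.82 ± 0.41 (adjusted p = 0.0241, 0.0135 and 0.00238). The genotypes did not overlap at any day. The day 0 call was lost without KO replicate 1 or 2 or WT replicate 1 (adjusted p from 0.108 to 0.175), and the day 2 call without KO replicate 2 or either WT replicate (0.0784 to 0.0956). The day 4 call held with each library left out.

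Cxcr4, Cx3cr1 and Ccr2 passed edgeR's test as higher in KO libraries at day 4, and not at days 0 and 2. In CPM, the KO libraries of day 2 also lay above the WT libraries for all 3, and DESeq2's Wald test called Ccr2 there. On the TPM scale the day 2 libraries of Cx3cr1 overlapped between the genotypes. With 2 libraries per group such separation was common at day 4, where it held, in either direction, for 66.5% of all tested genes. The share at day 2 is not given here, and fewer genes were called at that day (4.52%, against 25.6% at day 4). The order of the day 2 libraries is thus no evidence by itself. Cxcr4 had 190 and 199 CPM in KO libraries at day 0, against 395 and 223 CPM in WT libraries. KO libraries of day 4 held 169 and 132 CPM, against 45.0 and 16.1 CPM in WT libraries, a difference of 2.30 ± 0.45 (adjusted p = 0.00869). Cx3cr1, the fractalkine receptor of monocytes and osteoclast precursors, had 157 and 124 CPM in KO libraries at day 4, against 11.8 and 7.54 CPM in WT libraries (3.86 ± 0.55, adjusted p = 0.00253). These KO libraries lay above every earlier library of either genotype. Ccr2, the receptor of Ccl2, Ccl7 and Ccl12, had 10.5 and 37.2 CPM in KO libraries at day 0, against 38.7 and 14.9 CPM in WT libraries. By day 4 it had 4.40 and 4.83 CPM in KO libraries, against 0.412 and 0.513 CPM in WT libraries (3.30 ± 0.91, adjusted p = 0.0319). The Ccr2 call was lost with any 1 of the 4 libraries of day 4 left out (adjusted p from 0.0655 to 0.152) and on the TPM scale (0.121).

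Ccr1 and Ccr3, receptors that lie beside Ccr2 in 1 cluster on chromosome 9, did not pass edgeR's test at any day. Ccr1, a receptor of Ccl3, Ccl5, Ccl6 and Ccl9, had 98.9 and 74.1 CPM in KO libraries at day 0, against 26.5 and 38.9 CPM in WT libraries. KO libraries of day 2 held 63.8 and 53.4 CPM, against 152 and 97.9 CPM in WT libraries. By day 4 the level was 208 and 32.7 CPM in KO libraries, against 294 and 376 CPM in WT libraries. The libraries of the genotypes thus stood in opposite order at day 0 and at the later days, and the 2 KO libraries of day 4 lay far apart. The log2 differences were 1.40 at day 0, -1.09 at day 2 and -1.48 at day 4 (adjusted p = 0.419, 0.363 and 0.157). Ccr3 had 24.2 and 5.83 CPM in KO libraries at day 4, against 38.3 and 40.2 CPM in WT libraries (-1.39, adjusted p = 0.133). By day 2 the level was 1.38 and 2.73 CPM in KO libraries, against 17.2 and 13.5 CPM in WT libraries (-2.90, adjusted p = 0.0526). This day 2 difference of Ccr3 did pass with DESeq2's Wald test (adjusted p = 0.00019), with limma on the TPM scale (0.0411) and in edgeR on the 4 libraries alone (0.0283), and DESeq2 also called Ccr1 lower at day 4 (0.0457). KO replicate 1 of day 4, the higher library for both receptors, also held the higher osteoclast marker sum given above (4563 CPM, with 1669 CPM in replicate 2), whose part in these values was not tested. Without it, both receptors passed the test as lower in KO at day 4: Ccr1 at -3.36 (adjusted p = 0.000829) and Ccr3 at -2.75 (0.0048).

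The remaining receptors were scarce. Xcr1, Cxcr6 and Ccr7 stayed at or under 24 counts in every library, and Ccr7, the homing receptor of mature dendritic cells, had 0 counts at day 0 in both genotypes. Of the atypical receptors, Ccrl2, which presents chemerin and is induced in activated macrophages, had 3.33 and 16.1 CPM in KO libraries at day 4, against 0.463 and 0.103 CPM in WT libraries. The difference was 5.06 ± 0.94 (adjusted p = 0.007), and without WT replicate 2 it was 4.37 (0.065). Ackr3, the scavenger of Cxcl12, stayed between 0 and 10.7 CPM and did not pass the test at any day.

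The 12 inflammatory CC ligands held the most calls: all 10 tested ones changed at day 4, 9 upward and Ccl9 downward. Ccl2, Ccl7, Ccl12 and Ccl8, which lie in 1 cluster on chromosome 11, come first. Ccl2, the main monocyte attractant, had 14.1 and 11.7 CPM in KO libraries at day 0, against 3.43 and 4.69 CPM in WT libraries. At day 2 it had 367 and 282 CPM in KO libraries, against 142 and 184 CPM in WT libraries. At day 4 it had 101 and 120 CPM in KO libraries, against 7.56 and 7.74 CPM in WT libraries. Ccl2 was thus higher in KO at all 3 days, by 1.66 ± 0.22, 0.99 ± 0.20 and 3.85 ± 0.22 (adjusted p = 0.0163, 0.033 and 0.000244). The day 0 call was lost without KO replicate 1 or 2 or WT replicate 1 (adjusted p from 0.0922 to 0.106) and the day 2 call with any 1 library left out (0.115 to 0.208). Ccl7, its neighbour on chromosome 11, had 14.7 and 8.95 CPM in KO libraries at day 0, against 1.05 and 2.93 CPM in WT libraries (2.56 ± 0.45, adjusted p = 0.0355). Without KO replicate 1 or 2 or WT replicate 1 this adjusted p was between 0.122 and 0.196. At day 2 the 2 genotypes overlapped, with 62.8 and 45.6 CPM in KO libraries and 55.0 and 40.1 CPM in WT libraries. At day 4 Ccl7 had 24.6 and 23.2 CPM in KO libraries, against 3.24 and 2.31 CPM in WT libraries (3.10 ± 0.44, adjusted p = 0.00231). Ccl12, a mouse CCR2 ligand, had 38.8 and 39.5 CPM in KO libraries at day 4, against 1.90 and 0.359 CPM in WT libraries (5.10 ± 0.79, adjusted p = 0.00334). Ccl8 had 2.92 and 2.44 CPM in KO libraries at day 4, against 0.309 and 0 CPM in WT libraries. Its difference of 4.06 ± 1.2 (adjusted p = 0.039) was lost with any 1 library left out (0.0503 to 0.172).

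The inflammatory ligands Ccl3, Ccl4 and Ccl5, made by activated macrophages, were all higher in KO libraries at day 4. Ccl3 had 5.58 and 3.73 CPM in KO libraries at day 0, against 17.3 and 8.51 CPM in WT libraries. Its day 2 values were 43.0 and 34.5 CPM in KO libraries, against 34.6 and 38.8 CPM in WT libraries. Its day 4 values were 11.5 and 29.6 CPM in KO libraries, against 0.772 and 1.38 CPM in WT libraries. Only the day 4 difference passed the test, at 4.24 ± 0.58 (adjusted p = 0.00206). Ccl4, whose span overlaps that of Ccl3, had 7.12 and 23.9 CPM in KO libraries at day 4, against 0.566 and 0.564 CPM in WT libraries (4.76 ± 0.58, adjusted p = 0.00134). Without a stated strand setting, reads from the overlap of Ccl3 and Ccl4 cannot be told apart. Ccl5, also the ligand of CCR1 and CCR3, had 29.7 and 25.2 CPM in KO libraries at day 2, against 1.89 and 4.63 CPM in WT libraries. KO libraries of day 4 held 14.8 and 49.7 CPM, against 2.16 and 2.56 CPM in WT libraries. The 2 differences of Ccl5 were 3.07 ± 0.63 (adjusted p = 0.0376) and 3.77 ± 0.65 (0.00499), and the first was lost with any 1 library of day 2 left out (0.0896 to 0.198). Ccl24, an eosinophil attractant that binds CCR3, had 2 and 14 counts in KO libraries at day 4, against 0 and 0 counts in WT libraries. Set against a floor of 3 counts over the WT group it was at least 5.53-fold higher, and its call (adjusted p = 0.0256) was lost without KO replicate 2 or either WT replicate (0.0938 to 0.158) and on the TPM scale (0.208).

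Ccl9 and Ccl6, related CCR1 ligands with 1 gene between them on chromosome 11, moved apart at day 4. Ccl9 had 498 and 514 CPM in KO libraries at day 0, against 785 and 510 CPM in WT libraries. KO libraries of day 2 held 693 and 956 CPM, against 1195 and 997 CPM in WT libraries. By day 4 the level was 960 and 936 CPM in KO libraries, against 2148 and 2585 CPM in WT libraries. Ccl9 alone among the members was called lower in KO at day 4, by -1.32 ± 0.23 (adjusted p = 0.0048), with -0.36 at day 0 (0.54) and -0.41 at day 2 (0.296). Ccl6 had 421 and 325 CPM in KO libraries at day 0, against 545 and 340 CPM in WT libraries. By day 2 the level was 393 and 370 CPM in KO libraries, against 408 and 400 CPM in WT libraries. At day 4 it had 22.9 and 65.5 CPM in KO libraries, against 6.74 and 8.82 CPM in WT libraries. The genotypes differed in Ccl6 by 2.51 ± 0.47 at day 4 (adjusted p = 0.00693), and by 2.32 (0.058) without WT replicate 1. Their promoters are shown because the 2 neighbours changed in opposite directions. The sequences are RefSeq's for GRCm38.p6, 250 bases before to 50 after the start, minus strand, chr11:83578587-83578886 for Ccl9 and chr11:83593038-83593337 for Ccl6, with motif matches in capitals.
Ccl9: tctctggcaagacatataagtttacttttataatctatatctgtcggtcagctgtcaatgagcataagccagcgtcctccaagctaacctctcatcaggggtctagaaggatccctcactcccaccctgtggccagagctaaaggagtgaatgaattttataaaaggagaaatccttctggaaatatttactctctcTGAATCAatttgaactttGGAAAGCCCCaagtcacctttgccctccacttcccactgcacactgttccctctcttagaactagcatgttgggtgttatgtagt
Ccl6: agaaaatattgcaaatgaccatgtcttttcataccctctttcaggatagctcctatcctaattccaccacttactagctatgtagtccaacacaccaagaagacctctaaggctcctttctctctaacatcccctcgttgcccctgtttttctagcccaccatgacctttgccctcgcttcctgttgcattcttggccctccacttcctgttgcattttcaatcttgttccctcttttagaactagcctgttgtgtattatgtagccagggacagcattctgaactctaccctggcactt
The Ccl9 window holds 1 match to the AP-1 motif (TGANTCA, either strand) and 1 to the NF-kB consensus, and the Ccl6 window holds neither.

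The CXCR2 ligands Cxcl1, Cxcl2, Cxcl3 and Cxcl5, neutrophil attractants induced by NF-kB, had their highest group means at day 2 in both genotypes. Cxcl2 had 1.90 and 0.901 CPM in KO libraries at day 0, against 5.0 and 1.93 CPM in WT libraries. At day 2 it had 175 and 253 CPM in KO libraries, against 51.2 and 36.0 CPM in WT libraries. Its day 4 values were 6.04 and 18 CPM in KO libraries, against 0.669 and 0.0513 CPM in WT libraries. The day 2 difference of 2.29 did not pass the test (adjusted p = 0.0854), and that of day 4 did, at 5.03 ± 0.92 (0.0067), though not without WT replicate 2 (4.15, 0.0551). The day 2 difference of Cxcl2 did pass with DESeq2's Wald test (adjusted p = 0.0107) and in edgeR on the 4 libraries alone (0.0305), but not with limma. Cxcl3 had 11.6 and 22.0 CPM in KO libraries at day 2, against 4.11 and 2.89 CPM in WT libraries. That difference was not called in the main fit. It passed with DESeq2's Wald test (0.00728), with limma on the TPM scale (0.0389) and in edgeR on the 4 libraries alone (0.0427). KO libraries of day 4 held 2.10 and 1.11 CPM, against 0.103 CPM in each WT library (3.88 ± 0.81, adjusted p = 0.00995). Leaving out WT replicate 1 (adjusted p = 0.0667) or 2 (0.0778) ended that call. Cxcl1 had 10.3 and 23.1 CPM in KO libraries at day 2, against 5.88 and 1.56 CPM in WT libraries, and 1.28 and 1.72 CPM in KO libraries at day 4, against 0.515 and 0.256 CPM in WT libraries. Its libraries did not overlap at either day, but it did not pass the test, as Cxcl5 did not. Cxcl1, Cxcl2 and Cxcl3 stand in 1 cluster on chromosome 5, and 51-base windows of their promoters are shown because all 3 hold the same 11-base motif match. The windows are RefSeq's for GRCm38.p6, plus strand, chr5:90891154-90891204, chr5:90903782-90903832 and chr5:90786008-90786058, with the shared match in capitals.
Cxcl1: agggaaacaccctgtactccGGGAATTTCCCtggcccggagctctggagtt
Cxcl2: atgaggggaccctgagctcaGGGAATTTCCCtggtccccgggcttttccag
Cxcl3: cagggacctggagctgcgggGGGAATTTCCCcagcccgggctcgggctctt
The run is a pair of overlapping matches to the NF-kB consensus, 1 base apart.

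Cxcl9, Cxcl10 and Cxcl11, interferon-induced ligands of CXCR3 that attract T and NK cells, were highest in the KO libraries of day 4. Cxcl10 had 4.45 and 8.11 CPM in KO libraries at day 0, against 6.75 and 3.37 CPM in WT libraries. Its day 2 values were 28.1 and 49.4 CPM in KO libraries, against 2.50 and 7.46 CPM in WT libraries. By day 4 the level was 222 and 769 CPM in KO libraries, against 17.9 and 27.2 CPM in WT libraries. The genotypes overlapped at day 0 and not later, with a difference of 2.96 at day 2 (adjusted p = 0.0649) and of 4.46 ± 0.77 at day 4 (0.0054), which became 4.18 (0.0519) without WT replicate 1. The day 2 difference of Cxcl10 did pass with DESeq2's Wald test (adjusted p = 0.000233), with limma on the TPM scale (0.0458) and with the replicate block (0.0404). It did not pass in edgeR on the 4 libraries alone. Cxcl9 had 4.71 and 23.4 CPM in KO libraries at day 4, against 0.309 and 0.205 CPM in WT libraries (5.73 ± 0.84, adjusted p = 0.00238). Cxcl11 had 5.07 and 12.9 CPM in KO libraries at day 4, against 0.154 and 3.95 CPM in WT libraries, and did not pass the test. RefSeq lists mouse Cxcl11 as a transcribed pseudogene. All 3 ligands were higher in KO replicate 2 than in KO replicate 1 at day 4. The same library held the higher sum of the 15 interferon response genes, with 3489 and 10115 CPM in KO libraries, against 321 and 483 CPM in WT libraries. The Cxcl10 promoter is shown because it alone among the members held a match to each of the 3 motifs searched. It is RefSeq's for GRCm38.p6, chr5:92348840-92349139, minus strand, with the matches in capitals.
Cxcl10: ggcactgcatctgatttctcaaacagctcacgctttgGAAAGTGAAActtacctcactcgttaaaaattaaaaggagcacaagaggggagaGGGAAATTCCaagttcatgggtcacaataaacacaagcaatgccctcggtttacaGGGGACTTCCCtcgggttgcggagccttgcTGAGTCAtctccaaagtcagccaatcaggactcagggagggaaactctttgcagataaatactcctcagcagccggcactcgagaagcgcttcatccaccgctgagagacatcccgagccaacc
From 5′ to 3′ these are the ISRE (GAAA, any 2 bases and GAAA, the element read by interferon-activated factors), 3 NF-kB matches of which 2 overlap, and the AP-1 motif.

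Of the other ligands, Cxcl16 and Ccl22 were called at day 4. Cxcl16, a membrane-bound ligand of CXCR6, had 234 and 281 CPM in KO libraries at day 0, against 242 and 213 CPM in WT libraries. KO libraries of day 2 held 452 and 494 CPM, against 349 and 289 CPM in WT libraries. At day 4 it had 232 and 251 CPM in KO libraries, against 44.9 and 28.3 CPM in WT libraries. Only the day 4 difference passed the test, at 2.72 ± 0.22 (adjusted p = 0.000392), and the call held with each library of day 4 left out. The span of Cxcl16 overlaps that of Zmynd15, which moved with it: Zmynd15 averaged 14.9 CPM in KO and 2.24 CPM in WT libraries at day 4, and without a stated strand setting their shared reads cannot be told apart. The same limit holds for other members described above. Cxcl10 and Cxcl11 overlap the span of Art3, and Ccl5, Ccl6 and Cx3cr1 each overlap that of a non-coding gene. Ccl22, a ligand of CCR4, had 3.69 and 34.7 CPM in KO libraries at day 4, against 0.257 and 0.615 CPM in WT libraries (5.44 ± 1.42, adjusted p = 0.0367). Its 2 KO libraries differed widely, and the call was lost without KO replicate 2 (3.06, adjusted p = 0.185) and without WT replicate 1 (0.183) or 2 (0.159). Cxcl12, the ligand of CXCR4 and ACKR3, had 9.61 and 2.90 CPM in KO libraries at day 0, against 1.86 and 9.11 CPM in WT libraries. By day 2 the level was 16.3 and 0.955 CPM in KO libraries, against 3.94 and 21.8 CPM in WT libraries, and at day 4 no library held more than 0.563 CPM. Its level split the replicates and not the genotypes, and it did not pass the test at any day. At day 0 the 10 stromal and osteoblast markers summed to 2795 and 1213 CPM in KO libraries, against 211 and 2306 CPM in WT libraries. At day 2 they summed to 3482 and 935 CPM in KO libraries, against 3800 and 4667 CPM in WT libraries. At day 4 they summed to 748 and 29.6 CPM in KO libraries, against 614 and 715 CPM in WT libraries. Of these markers Bglap was at 0 counts in 11 libraries and Sp7 in 8, and the other 8 were detected in every library. In each of the 6 groups the library with the higher marker sum also held more Cxcl12, though at day 4 only within levels of at most 0.563 CPM. The part of those markers in the level of Cxcl12 was not tested. Cxcl14, a chemokine without a settled receptor, had 20.6 and 9.26 CPM in KO libraries at day 4, against 11.2 and 7.59 CPM in WT libraries (0.67, adjusted p = 0.385). Cx3cl1, the ligand of CX3CR1, ranged from 0.499 to 9.38 CPM and did not pass the test between the genotypes. In WT cells it fell by 3.38 between days 2 and 4 (adjusted p = 0.023), a call lost with any 1 library left out (0.0617 to 0.113). Ccl25 and the Ccl27a and Ccl27b pair stayed under 60 counts.

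**Figure D3:**
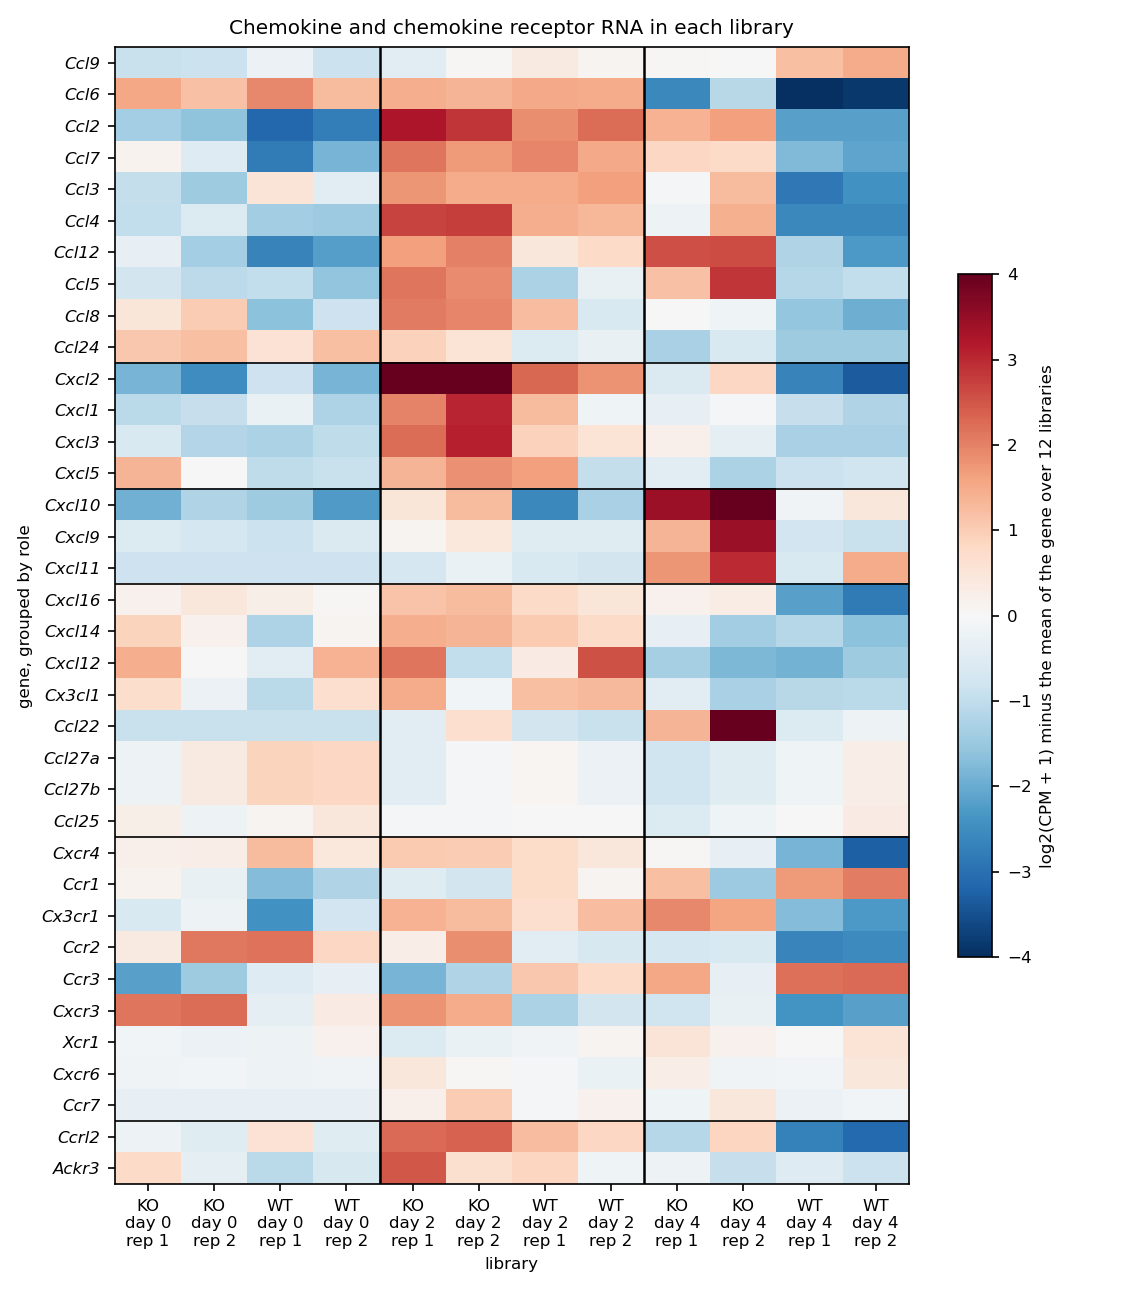
Heat map of 36 tested members in the 12 libraries, as log2(CPM + 1) minus the gene's mean over the libraries, with genes grouped by role and the libraries of days 0, 2 and 4 side by side; the colours end at -4 and 4. Ccl2, Ccl7, Ccl3, Ccl4 and Cxcl2 are reddest at day 2 in both genotypes, while at day 4 most rows are blue in WT libraries and Cxcl10, Cxcl9, Cxcl11 and Ccl22 are reddest in KO libraries.

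By day 2, Ccl2, Ccl4, Ccl7, Cxcl2 and Cxcl3 had risen in both genotypes, with Ccl2 alone of these called in both whichever library was left out. Between days 0 and 2, 8 members changed in KO cells, all upward (of all tested genes 4.74% were called, 3.01% upward and 1.73% downward), and 7 in WT cells, also all upward (of all genes 17.3%, with 8.06% upward and 9.25% downward). Ccl2 went up in KO cells by 4.65 ± 0.23 and in WT cells by 5.32 ± 0.24 (adjusted p = 2.84e-05 and 2.85e-05). Cxcl2 did so by 7.23 ± 0.86 in KO and 3.65 ± 0.73 in WT cells (0.00379 and 0.0149). Ccl3, Ccl5 and Cxcl1 were called in KO alone, and Ccl12 and Cx3cr1 in WT alone, which does not show that the genotypes differ in them. The KO call of Ccl7 was lost with any 1 library left out (adjusted p from 0.0744 to 0.211), as were those of Ccl3 (0.0653 to 0.17) and Ccl5 (0.0989 to 0.226). The KO call of Ccl4 was lost without either day 0 library (0.0751 and 0.0583), and that of Cxcl1 without either of these or without replicate 2 of day 2 (0.11 to 0.177). Without replicate 2 of day 0, the KO calls of Cxcl2 (0.0608) and Cxcl3 (0.0583) were lost too. In WT cells, Cxcl2 lost its call without replicate 2 of day 0 or either library of day 2 (0.0526 to 0.0707). Cxcl3 lost its WT call without replicate 1 of day 0 (0.0544) or of day 2 (0.0603), and Cx3cr1 without either library of day 2 (0.0588 and 0.0938).

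Between days 2 and 4 most calls were downward. In KO cells 6 rose and 14 fell (42.7% of all genes called, 22.1% upward and 20.6% downward), and in WT cells 2 rose and 21 fell (51.8%, with 27.4% upward and 24.4% downward). Cxcl10 rose in both, by 3.68 ± 0.74 in KO cells and 2.19 ± 0.74 in WT cells (adjusted p = 0.00517 and 0.0386). The WT call of Cxcl10 was lost without replicate 1 of day 2 (0.182) or either library of day 4 (0.0684 and 0.146), and without the count filter (0.0673). Ccl2 fell by 1.55 on the log2 scale in KO cells and fell by 4.41 in WT cells (0.000549 and 7.4e-06). Cxcl2 fell by 4.15 in KO cells and fell by 6.89 in WT cells (0.00258 and 0.000653). Both ligands thus fell in each genotype after day 2.

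Set against day 0, the day 4 balance was 13 higher and 5 lower in KO cells (44.6% of all genes called, 23.3% higher and 21.3% lower) and 6 higher and 11 lower in WT cells (56.8%, with 29.1% higher and 27.6% lower). Ccl3 and Ccl4 ended above day 0 in KO cells (2.13 ± 0.51 and 1.77 ± 0.47, adjusted p = 0.00987 and 0.0158) and below it in WT cells (-3.57 ± 0.57 and -2.11 ± 0.59, adjusted p = 0.000859 and 0.0142). Cxcl2 likewise ended 3.08 ± 0.78 above it in KO cells (0.0133) and stood at -3.24 ± 0.97 in WT cells (0.0202). Several of these calls rested on single libraries. In KO cells, Ccl3 lost its call without replicate 2 of day 0 (0.0756), Ccl4 without replicate 1 of day 0 (0.106), and Cxcl2 without replicate 2 of day 0 (0.0906) or of day 4 (0.0724). In WT cells, Ccl4 lost its call without replicate 1 of day 0 or either library of day 4 (0.055 to 0.0679), and Cxcl2 without replicate 1 of day 0 (0.117) or replicate 2 of day 4 (0.105). Ccl9 rose in both, by 0.91 ± 0.23 in KO cells and 1.87 ± 0.23 in WT cells (0.0116 and 0.000192), with the KO call lost without either day 0 library (0.0642 and 0.058). Ccr1 rose in WT cells by 3.36 ± 0.74 (0.00514), with 0.48 in KO cells (0.589), where it was -1.40 without KO replicate 1 of day 4 (0.0217) and 1.27 without replicate 2 (0.0166). Of the 37 tested members, the group mean was highest at day 0 in 6, at day 2 in 20 and at day 4 in 11 in KO cells, and in 9, 20 and 8 in WT cells.

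**Figure D4:**
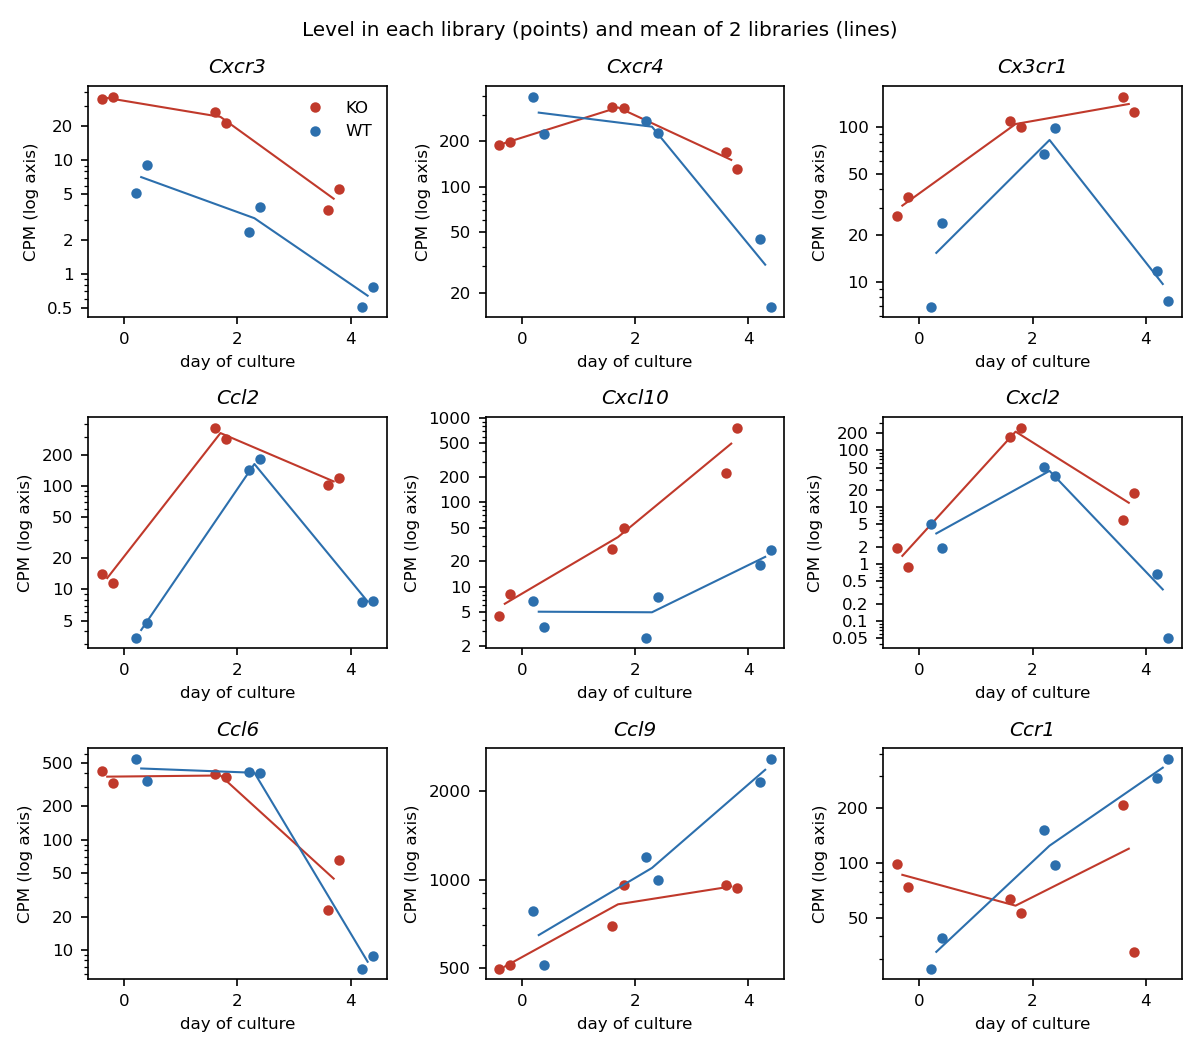
CPM (log axis) of 9 members in each library against the day of culture, with KO in red and WT in blue, points offset to the sides of each day so that they do not cover each other, and lines through the means of the 2 libraries. Cxcr3 lies higher in KO at each day, Ccl2, Cxcl2 and Cxcl10 part most widely at day 4, and Ccl9 climbs further in WT, to 2148 and 2585 CPM.

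Whether the knockout effect itself changed with time was tested as the interaction of genotype and day. From day 0 to day 4 the log2 difference of KO over WT shifted upward for 12 members and downward for 0. Of all tested genes 8.56% were called (5.75% upward and 2.82% downward). Among the 12 members were Ccl3, Cxcl16, Ccl6, Ccl4, Cxcl9, Cxcl10, Ccl2, Ccrl2, Cxcr4, Cx3cr1 and Cxcl2. The members' median was 1.95, beside -0.04 over all genes (1.47 and -0.0691 on the TPM scale). The interaction was 5.70 ± 0.77 for Ccl3 (adjusted p = 0.00753), 2.55 ± 0.30 for Cxcl16 (0.00492) and 2.19 ± 0.30 for Ccl2 (0.0075), and these 3 calls held with each of the 8 libraries left out. Each of the other 8 calls named was lost when any 1 of 4 to 7 of these libraries was left out (adjusted p from 0.0505 to 0.177). With the replicate numbers as a block 9 of the 12 were called, and Ccl6 and Cx3cr1 were not (adjusted p = 0.0521 and 0.0637). For Ccl9 the interaction was -0.96 (0.0976), for Ccr1 -2.88 (0.109), for Ccl5 3.22 (0.0612), for Ccl7 0.54 (0.624) and for Cxcr3 0.51 (0.585). Between days 0 and 2 the interaction passed for 0 members, where 0.00783% of all genes were called. In edgeR 7 members had an unadjusted p under 0.05 there, and DESeq2's Wald test called 2, Ccl7 and Cxcl2.

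The signalling genes behind the receptors moved at day 4 too. Of the 31 tested genes of Gi signalling and migration, 16 were higher and 2 lower in KO libraries at day 4, 3 higher at day 2 and 1 at day 0. The shares over all tested genes were 14.5% higher and 11.1% lower at day 4, 3.09% higher at day 2 and 0.767% higher at day 0. Plcb2, a phospholipase driven by G protein subunits, was higher at day 0 (1.84 ± 0.12, adjusted p = 0.000906) and day 2 (1.40 ± 0.12, 0.00512). At day 4 Arrb2, an arrestin that internalises receptors, was higher by 1.25 ± 0.12 (0.000668) and Dock2, which activates Rac in migrating leukocytes, by 1.45 ± 0.20 (0.00191). Of the 8 RGS genes, whose proteins shorten G protein signals, 3 were higher and 1 lower at day 4, 2 higher and 1 lower at day 2 and 1 lower at day 0, with Rgs1 at day 4 at 3.39 ± 0.43 (0.0015). Of 12 tested receptors for other attractants, 11 were higher at day 4, 2 at day 2 and 0 at day 0, with C5ar1, the receptor of complement C5a, at 3.95 ± 0.27 (0.000244). These lists also hold general macrophage genes, and the macrophage markers moved with them at day 4: 7 of 9 were higher and 0 lower in KO libraries. The 7 include Cx3cr1, which is also a member, so this count is not fully separate from the members.

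Genes of the inducing pathways were counted in the same way, against the same shares over all tested genes (14.5% higher at day 4, 3.09% at day 2, and 0.767% higher and 0.814% lower at day 0). Of 14 tested NF-kB response genes, 1 was higher and 2 lower in KO libraries at day 0, 2 higher at day 2 and 6 higher at day 4. Il1b, an inflammatory cytokine, was higher at all 3 days (3.62 ± 0.68, 4.65 ± 0.67 and 2.99 ± 0.78, adjusted p = 0.0455, 0.0193 and 0.0267). Nfkbia and Tnfaip3, inhibitors of the pathway, were lower at day 0 (-0.68 ± 0.11 and -1.57 ± 0.17, 0.0247 and 0.00957). All 15 interferon response genes were higher in KO libraries at day 4, 2 at day 2 and 0 at day 0, with Stat2 at 3.79 ± 0.53 (0.00242) at day 4. The interferon sums also stood higher in KO libraries before the day 4 calls, with 1343 and 2760 CPM in KO libraries at day 0, against 916 and 638 CPM in WT libraries.

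Promoter sequences of RefSeq were found for 44 of the 59 members, and the motifs were searched on both strands of the 300 bases. A gene was counted when any of its windows held the motif, among the members and among all 27025 mouse genes with a sequence. The AP-1 motif was in 8 of the 44, and in 8.97% of all these genes. The ISRE was in 3, and in 3.99% of all genes. The NF-kB consensus was in 13, and in 9.55% of all genes. Counted per window, 7.81%, 3.43% and 8.46% of 32817 promoters hold them. Among the 14 members called higher in KO at day 4 that have a sequence, 2 held the AP-1 motif, 1 the ISRE and 4 the NF-kB consensus, and among 13 tested members not called higher these were 4, 1 and 5. A match describes these letters only.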

How the data were processed

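RNA-seq of 12 libraries (6 groups of 2) was used; 12 ATAC-seq and 13 CUT&Tag samples were not analysed here. The deposited count table holds expected counts per gene as the authors made them, all whole numbers, and the authors' deposited TPM table holds TPM. Per the submitters' processing notes, Trim Galore 0.6.1, STAR 2.7.3a and RSEM 1.3.1 were used, with roles, strand setting and annotation not given in the sources used here; builds mm9 and mm10 are both named. RSEM shares reads between similar genes.

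All libraries were fitted together in edgeR 4.0.16 (R 4.3.3): TMM, filterByExpr (minimum count 10), a design with 1 mean for each group, the robust two-sided quasi-likelihood F test, Benjamini-Hochberg over 12774 genes. The size of a log2 fold change over sqrt(F) gave its SE. Genotypes were compared at each day, days within each genotype and, as 2 interactions, the KO effect between days, 11 comparisons in all; those that share libraries are not independent. Members, roles, gene lists and tests were chosen with earlier results of these data known. Named members were those called between genotypes or in an interaction, with a mean of at least 10 CPM, or in a ligand-receptor set with such a member; up to 4 called genes were eligible per list and day. Xcr1, Cxcr6, Ccr7, Ackr3, Ccl25 and Ccl27a are named to account for all members, and Zmynd15, Pf4, Ppbp, Kdr and the endothelial and stromal markers were named after their values were seen. 1 member and 1 gene of a pathway list entered the fits and counts but are not reported here. The scripts were tested on simulated data.

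Alternatives were DESeq2 size factors, no count filter, the DESeq2 1.42.0 Wald test, limma 3.58.1 on log2(TPM + 1), replicate numbers as a block, each library left out (the lone library is assumed to vary like the other groups) and, added after seeing the data, the 4 libraries of a comparison alone and a replicate block within each genotype. Intervals and floors (3 counts per group) cover counting error only. Promoters and gene order came from RefSeq, GRCm38.p6.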

Additional observations from a re-analysis of the deposited data

Results flagged for a closer look

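For the 11 members below, the difference between KO and WT at day 4 was not that of day 0, by the interaction test of edgeR over all tested genes (adjusted p under 0.05), and in each the change was upward. Two-sided adjusted p-values follow each value on the log2 scale.

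The inflammatory CC ligands held 4 of them: Ccl3 at 5.705 (SE 0.7662, adjusted p = 0.00753), Ccl4 at 3.883 (0.7527, 0.021), Ccl6 at 2.752 (0.6258, 0.0359) and Ccl2 at 2.19 (0.302, 0.0075). For Ccl3 the KO libraries lay below the WT libraries at day 0 and above them at day 4. For Ccl2 they lay above them at both days.

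Cxcl2, a CXCR2 ligand, changed by 6.319 (1.233, 0.0224). The CXCR3 ligands Cxcl9 and Cxcl10 changed by 5.405 (1.159, 0.0272) and 4.145 (1.043, 0.0486), and Cxcl16 by 2.547 (0.2994, 0.00492).

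Of the receptors, Ccrl2 changed by 5.578 (1.174, 0.0284), Cxcr4 by 2.967 (0.6195, 0.0272) and Cx3cr1 by 2.85 (0.7133, 0.0483). Ccl2, Ccl3 and Cxcl16 kept the call with each of the 8 libraries left out. The other 8 lost it in at least 1 of these fits.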

How the results depend on the processing

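Counts of called members in the KO against WT comparisons depended on single libraries and on which libraries were fitted. With 1 library left out they ran from 0 to 5 at day 0 (main 4), from 0 to 2 at day 2 (main 4) and from 15 to 22 at day 4 (main 22); the counts of 0 at day 0 came without KO replicate 1, KO replicate 2 or WT replicate 1. Fitted on the 4 libraries alone they were 0, 9 and 0, and DESeq2's Wald test called 10 at day 2. Over time they ran from 4 to 8 in WT day 2 against day 0 (main 7, DESeq2 16), from 1 to 5 in KO day 2 against day 0 (main 8, DESeq2 15), and from 12 to 16 in KO day 4 against day 2 (main 20). The day 4 interaction ran from 3 to 14 (main 12) and DESeq2 called 2 in the day 2 interaction (main 0). Fewer samples or another dispersion estimate entered those fits; beyond that the cause was not tested.

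Arid1a at day 0 was -1.095 (adjusted p = 0.093) without KO replicate 1, -1.22 (0.106) without KO replicate 2 and -1.169 (0.0864) on the 4 libraries alone (leave-out range -1.283 to -1.017). At day 2 it passed with DESeq2 (-0.5728), on the TPM scale (-0.6603) and alone (-0.5624). At day 4 it was -0.5633 (0.0585) without WT replicate 1 and -0.6856 (0.0936) alone, with a leave-out range of -0.8441 to -0.5633. Signs turned for values not called with all libraries: Cxcl14 at day 4 (-0.01891 without KO replicate 1, up to 1.139), Cxcl12 at day 4 (-1.161 without KO replicate 1, -0.4284 without WT replicate 1, up to 2.572), Ccr1 in KO day 4 against day 0 (-1.404, adjusted p = 0.0217, without KO replicate 1 of day 4 and 1.27, adjusted p = 0.0166, without replicate 2), the Cxcr3 interaction (-0.3887 on the TPM scale) and the Ccl7 interaction (-0.4016 without WT replicate 2 of day 0, up to 1.106).

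The labels do not say that replicate numbers pair samples. Correlations of replicate differences were 0.45 to 0.638 between the 3 KO days, 0.0983 to 0.31 between the 3 WT days and -0.551 to 0.0374 between KO and WT groups, a hint of pairing within KO. With the replicate block 4, 5 and 21 members were called at days 0, 2 and 4 (Ccl8 was lost at day 4), and 9 in the day 4 interaction. A replicate block within each genotype, added after seeing the data, called 12 members in WT day 2 against day 0 (main 7), 9, 23 and 24 in KO days 2 and 4 against day 0 and day 4 against day 2 (main 8, 18 and 20), and 12 in the day 4 interaction, where Ccl6 (0.0605) and Cx3cr1 (0.0675) were lost. On the TPM scale the median of all genes moved by -0.135 in KO against WT at day 2, where calls were 68.5% upward in edgeR and 48.8% upward on the TPM scale; in WT day 2 against day 0 it moved by 0.112 (46.5% and 65.8%) and in KO day 4 against day 2 by 0.154 (51.8% and 62.1%).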
